A study of Rattus norvegicus with 15 samples.

Results

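Whether aspirin acted differently on marrow stromal cells in fat-inducing and in bone-inducing culture was asked with 12 of the 15 libraries of the series, 3 in each of 4 groups. All were cultures of bone mesenchymal stem cells from Sprague-Dawley bone marrow (an outbred rat strain), grown at passage 3 to 6 until confluent. Adi cells were kept in adipogenic differentiation basal medium and Adi_ASA cells in that medium with aspirin (acetylsalicylic acid, ASA). Ost cells were kept in osteogenic differentiation basal medium, to which aspirin was added for the Ost_ASA cells. The other 3 libraries, the untreated Control cells, entered the row filter, the scaling and the estimate of the spread. They were not part of any contrast tested below, and their levels are given only for reference. The sources used here give neither the aspirin dose, nor the time in culture, nor whether replicates were separate animals or dishes. The p-values set each effect against the spread among replicate libraries only, and that spread may be technical variation. The cultures were whole populations, so fewer cells of a type and less RNA per cell cannot be told apart.

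Marrow stromal cells can become fat-storing adipocytes or matrix-depositing osteoblasts, and differentiation media push them towards one of these fates. Aspirin acetylates the cyclooxygenases, the enzymes that make prostaglandins from arachidonic acid, and prostaglandins are local signals in both fat and bone. A drug can thus meet cells of a different state in each medium. The interaction is the aspirin effect in adipogenic medium minus that in osteogenic medium, on the log2 scale, where 1 stands for a doubling. It measures only this difference of effects, not the state of the cells. A positive interaction means that the estimated effect was more positive in adipogenic medium, not that the gene was higher there.

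The count table gives Ensembl identifiers, and 0 of its 34480 rows could be paired with a symbol in the reference table (assembly GRCr8). Genes are therefore described as groups, 4 are given by identifier, and their functions and positions are not stated. The stem cell, adipocyte, osteoblast and other cell type markers could not be looked up either, so the labelled cell type was not checked. Libraries held 18373289 to 22817858 counted reads, and 14210 Ensembl rows had enough reads to be tested. Levels are CPM (reads scaled by library size and TMM factor), which compare a gene between libraries but not one gene with another.

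The effect of aspirin differed between the media for 428 genes, 3.01% of the 14210 tested (edgeR quasi-likelihood test of the interaction, adjusted p under 0.05). The effect was more positive in adipogenic medium for 184 genes (1.29%) and more negative for 244 (1.72%). Most of these differences were modest. The median size was 0.59 on the log2 scale with a median standard error of 0.11, against a median size of 0.14 over all genes tested. At least 1.5-fold differences were found for 217 of the 428, at least 2-fold for 75 (35 positive, 40 negative), and at least 4-fold for 12. Of those 12, 4 had 3 reads or fewer in a whole group, so the sizes of their differences rest on few reads. Only 4 of the 12 reached 5 CPM in the highest of the 4 groups, so most of these large differences were in scarce genes. Just inside the threshold lay a gene with a difference of 0.41 (SE 0.11, edgeR adjusted p = 0.04998) and just outside it one with 0.29 (SE 0.08, edgeR adjusted p = 0.05023).

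Aspirin itself, tested within each medium, changed 652 genes in adipogenic medium (4.59% of the genes tested, 2.65% higher and 1.94% lower; edgeR adjusted p under 0.05). In osteogenic medium it changed 537 (3.78%, with 2.41% higher and 1.37% lower). Only a part of these was shown to respond differently in the other medium. Of the 652 genes, 438 had no interaction call, and of the 537, 341 had none. A missing call does not show that the effects were equal: the interaction had a median standard error of 0.14 over all genes tested, and its median size was 0.27 and 0.26 in these 2 sets. Without Adi_ASA replicate 3, the count of 652 was 279. It was 387 and 398 without Adi replicates 2 and 3, and 410 and 402 without Adi_ASA replicates 1 and 2. The count of 537 was 325 and 333 without Ost replicates 1 and 2, and 343 without Ost_ASA replicate 3.

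**Figure D1:**
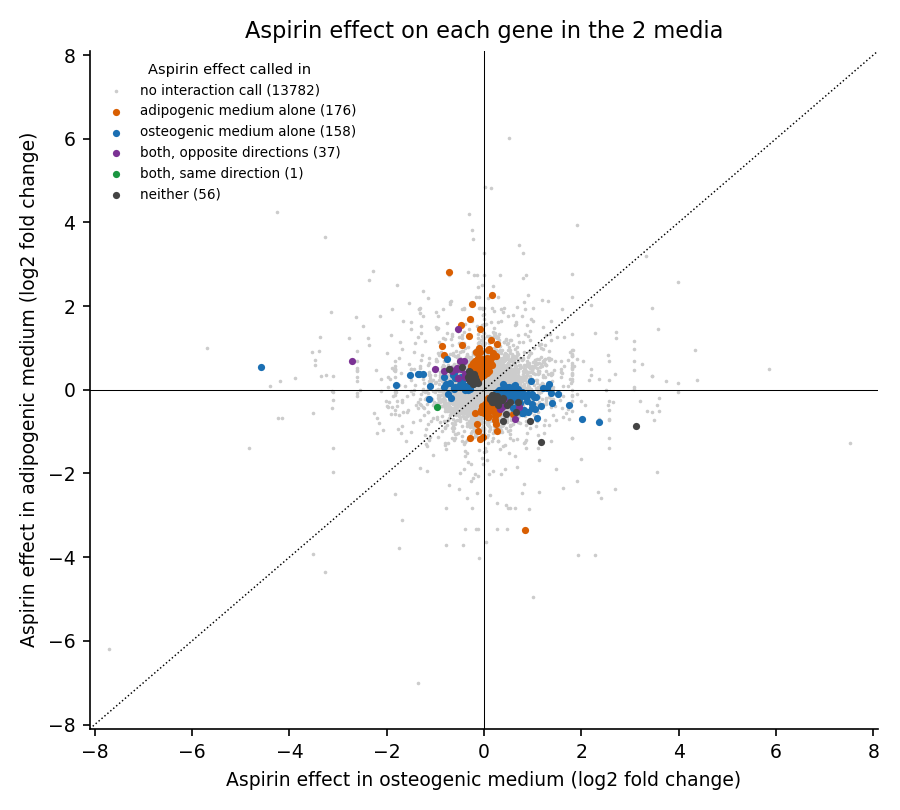
Each point is 1 of 14210 genes, with the log2 fold change of aspirin in osteogenic medium on the x axis and in adipogenic medium on the y axis. Coloured points are the 428 genes with an interaction call, coloured by the medium in which aspirin passed its own test. They lie away from the dotted line of equal effects, 373 of them in the quadrants of opposite sign.

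In 176 of the 428 genes (41.1%) aspirin passed its test in adipogenic medium and not in osteogenic medium, and 99 of them rose and 77 fell in adipogenic medium. A missing call does not show a missing effect. In 75 of the 176 the libraries with and without aspirin did not overlap in osteogenic medium either, against 18.7% of all genes tested. The interaction test that selected the 176 uses these same libraries, so nothing is read from this count. The 99 genes that rose had a median log2 fold change of 0.48 in adipogenic medium and -0.11 in osteogenic medium, and their median level went from 32.7 CPM in Adi to 45.1 CPM in Adi_ASA. In Ost and Ost_ASA it was 42.3 and 39.98 CPM. The 77 genes that fell had medians of -0.39 in adipogenic and 0.13 in osteogenic medium, with median levels of 76.5 CPM in Adi, 59.9 in Adi_ASA, 56.4 in Ost and 69.98 in Ost_ASA. Rises made up 56.2% of this group, close to their share of all 652 genes that aspirin changed in adipogenic medium (57.8%). The group held 116 genes without Adi replicate 2, 141 without Adi replicate 3 and 87 without Adi_ASA replicate 3, and was then smaller than the group called in osteogenic medium and not in adipogenic medium (131, 146 and 126 genes).

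In 158 genes (36.9%) aspirin passed its test in osteogenic medium and not in adipogenic medium, and rises prevailed among them. There 115 rose and 43 fell, so that rises made up 72.8%, against 63.7% of all 537 genes that aspirin changed in osteogenic medium. This difference in shares was not tested. In 59 of the 158 the libraries with and without aspirin did not overlap in adipogenic medium either, against 24.2% of all genes tested. These libraries too entered the test that selected the 158, so nothing is read from this count. The 115 genes that rose had a median log2 fold change of 0.45 in osteogenic and -0.13 in adipogenic medium, and their median level went from 38.6 CPM in Ost to 53.8 CPM in Ost_ASA. In Adi and Adi_ASA it was 40.6 and 38.6 CPM. The 43 genes that fell went from a median of 48.03 to 31.8 CPM, with a median log2 fold change of -0.59, and had 0.12 in adipogenic medium.

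Aspirin passed its own test in both media for 38 of the 428 genes, and in 37 of them it moved the gene in opposite directions. A test of the difference selects genes with opposite effects, so nothing is read from this share. Over all genes tested, aspirin passed its test in both media for 86, and the directions were opposite in 37. In 20 of the 37 genes aspirin raised the level in adipogenic medium and lowered it in osteogenic medium, with median log2 fold changes of 0.45 and -0.48. In the other 17 it lowered the level in adipogenic medium (median -0.29) and raised it in osteogenic medium (median 0.36). These 17 genes were abundant: their median level was 172.9 CPM in Adi and 132.2 in Adi_ASA, and 102.0 in Ost and 132.7 in Ost_ASA. These are medians over genes: within genes, the difference between the media was smaller with aspirin in 8 of the 17. The remaining gene of the 38 fell in both media, from 765.5 to 576.5 CPM in adipogenic medium and from 85.9 to 44.2 CPM in osteogenic medium (log2 fold changes of -0.41 and -0.96). Its fall was larger in osteogenic medium on the log2 scale and larger in adipogenic medium in CPM, so the direction of the difference depended on the scale. The 37 genes became 20 without Adi replicate 3, 22 and 21 without Adi_ASA replicates 2 and 3, 23 without Ost replicate 1, and 62 with DESeq2.

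For the last 56 genes (13.1%) the difference passed the test although neither effect did. In all 56 the estimates had opposite signs, with median sizes of 0.23 in adipogenic and 0.24 in osteogenic medium. The estimate was lower with aspirin in adipogenic medium and higher in osteogenic medium for 35 of them, and the reverse held for 21. Aspirin also passed its test in both media for 48 genes with no interaction call. All 48 moved in the same direction in both media, 31 up and 17 down, with median sizes of 0.41 in each. Genes called in both media with opposite signs would pass the test of the difference, so nothing is read from their shared direction.

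**Figure D2:**
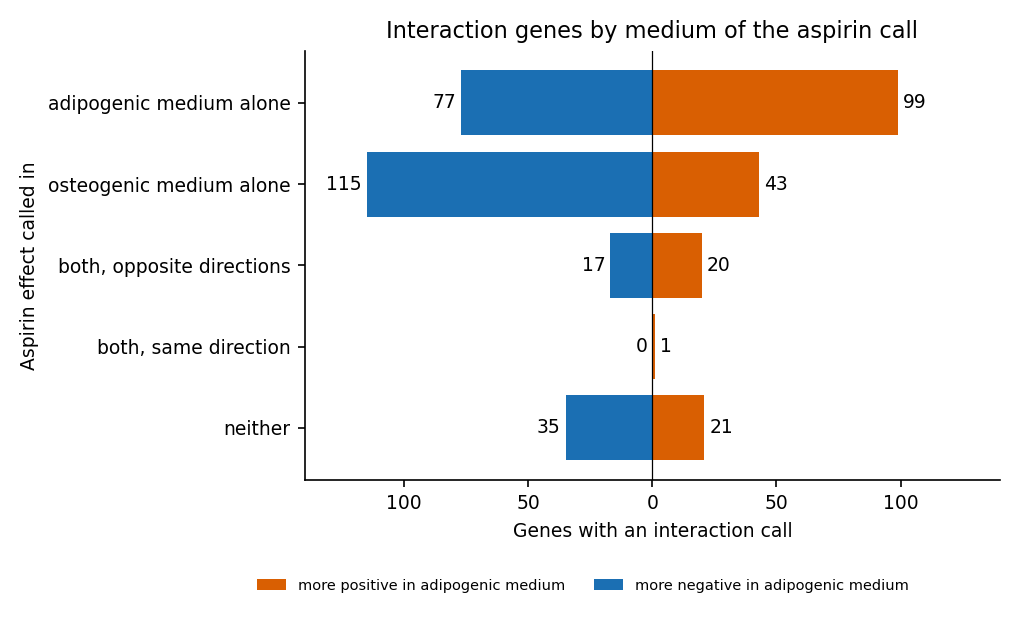
Bars count the 428 interaction genes by the medium in which aspirin passed its own test, to the right for genes with a more positive effect in adipogenic medium and to the left for a more negative one. The longest bar is the 115 genes with a rise called in osteogenic medium alone, followed by the 99 with a rise called in adipogenic medium alone.

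Over the 428 genes, the estimated effects had opposite signs for 373 (87.1%), against 45.9% of all genes tested. A test of the difference selects genes with opposite effects, so nothing is read from this share. The estimate was up in adipogenic and down in osteogenic medium for 156 genes and the reverse for 217. For the other 55 genes the estimates had the same sign and differed in size, 34 being larger in adipogenic medium and 21 in osteogenic medium. The direction can depend on the scale when a gene has very different levels in the media. Taken as a difference of mean CPM rather than of logarithms, 420 of the 428 kept their direction, and the 8 that did not were among the 55 with the same sign.

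The libraries with aspirin lay all above or all below those without it in adipogenic medium for 313 of the 428 genes, against 24.2% of all genes tested, and in osteogenic medium for 323, against 18.7%. This held in both media for 208 genes, against 5.69%, and in at least 1 medium for all 428, against 37.3%. The test uses the same libraries, so nothing is read from these counts. Interaction genes were found at all levels but more often among abundant genes. Of 1629 genes with a mean under 1 CPM over the 4 groups, 6 had a call (0.368%), and of 1891 with a mean over 100 CPM, 137 (7.24%). The median standard error fell from 0.70 to 0.09 between these sets, and the median size of a called difference from 3.12 to 0.49. At this depth, small differences could be called in abundant genes, and scarce genes were called with large ones. In the Control libraries, whose group mean does not enter the interaction, the median level of the 428 genes was 40.8 CPM. It was 18.04 CPM for all genes tested, and 16 of the 428 were under 1 CPM. As abundant genes were called more often, nothing is read from this difference in level.

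The 4 genes named are, by rule, those with the largest interaction in each direction among 411 genes. These reached 5 CPM in at least 1 of the 4 groups, with no overlap of libraries by aspirin in at least 1 medium. Separation of the libraries was thus a condition for naming, and the same libraries gave the interaction. Nothing is read from that separation in the 4 genes. Of these 411, ENSRNOG00000017539 had the largest positive interaction. Its level was 7.03, 6.32 and 7.09 CPM in the 3 Adi libraries and 10.7, 11.5 and 10.8 CPM in the Adi_ASA libraries. In Ost it was 0.215, 0.105 and 0.355 CPM, and in Ost_ASA 0.0446, 0 and 0.0438 CPM. Aspirin thus went with a higher level in every library of adipogenic medium and a lower one in every library of osteogenic medium, where the gene was close to the limit of detection. In adipogenic medium the gene rose by 0.69 on the log2 scale (SE 0.19, edgeR adjusted p = 0.0362), from 6.81 ± 0.428 to 11.0 ± 0.397 CPM (SD, n = 3). In osteogenic medium only 15 reads were counted without aspirin and 2 with it, a 7.71-fold fall with a 95% interval of 1.79 to 69.5 (exact, counting error only; edgeR adjusted p = 0.0247). The interaction was 3.41 (SE 0.59, edgeR adjusted p = 0.00232), and without Ost replicate 3 it was 2.94 and lost its call (edgeR adjusted p = 0.0734); over all 24 alternatives the adjusted p was 0.00178 to 0.0734. As the difference of CPM, the adipogenic side was the larger: the mean rose by 4.21 CPM there and fell by 0.195 CPM in osteogenic medium.

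ENSRNOG00000049695 showed the reverse arrangement, with its level in osteogenic medium and few reads in adipogenic medium. The Adi libraries had 0.113, 0 and 0.213 CPM and the Adi_ASA libraries 0.557, 0.443 and 0.413 CPM, from 6 and 27 reads in all. All Adi_ASA libraries lay above all Adi libraries, and near the Control libraries (0.331, 0.42 and 0.43 CPM). In Ost the level was 13.9, 12.3 and 16.1 CPM and in Ost_ASA 11.6, 11.6 and 12.7 CPM, which overlapped. The log2 fold change was 2.04 in adipogenic medium (SE 0.44, edgeR adjusted p = 0.0132) and -0.24 in osteogenic medium (SE 0.18, edgeR adjusted p = 0.602), and the interaction was 2.28 (SE 0.47, edgeR adjusted p = 0.00817). It was 1.72 without Adi replicate 2, the library with no read, and lost its call (edgeR adjusted p = 0.0857); over all 24 alternatives the adjusted p was 0.00309 to 0.0857. The log2 fold change of adipogenic versus osteogenic medium was -6.93 without aspirin and -4.65 with it, so the gene was lower in adipogenic medium in both cases. As the difference of CPM, the osteogenic side was the larger, although aspirin had no call there. The mean changed by 0.363 CPM in adipogenic medium and by -2.14 CPM in osteogenic medium.

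ENSRNOG00000022432 had the smallest edgeR adjusted p of the 4 interactions. Its level was 1.93, 2.15 and 2.04 CPM in Ost and 6.96, 6.61 and 7.14 CPM in Ost_ASA, 2 sets that lay far apart. In Adi it was 5.68, 4.01 and 5.75 CPM and in Adi_ASA 3.79, 4.78 and 3.46 CPM, which overlapped. Aspirin raised the gene by 1.76 on the log2 scale in osteogenic medium (SE 0.17, edgeR adjusted p = 3.46e-06). In adipogenic medium the log2 fold change was -0.36 (SE 0.17, edgeR adjusted p = 0.268). The interaction was -2.12 (SE 0.24, edgeR adjusted p = 2.66e-05), between -2.27 and -2.02 under all 24 alternatives, each with a call. These fits reuse most or all of the libraries that selected the gene, so nothing is read from the kept call. The order of the media turned: without aspirin the gene was higher in adipogenic medium by 1.33 (SE 0.17, edgeR adjusted p = 7.11e-07), and with aspirin lower by 0.78 (a log2 fold change of -0.78, SE 0.16, edgeR adjusted p = 0.000259). The Ost_ASA libraries lay above all libraries of the other groups, Control included (2.69, 3.18 and 3.15 CPM).

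Among the 411 genes eligible for naming, ENSRNOG00000055012 had the largest negative interaction. In CPM its replicates also spread most widely of the 4 named genes (SD 15.9 in Adi and 14.3 in Ost_ASA). Its level was 10.7, 4.66 and 4.26 CPM in Ost and 49.1, 20.6 and 32.7 CPM in Ost_ASA. The Adi libraries had 17.4, 49.3 and 33.7 CPM and the Adi_ASA libraries 15.9, 24.4 and 18.4 CPM. All Ost_ASA libraries lay above all Ost libraries, while the adipogenic sets overlapped. The log2 fold change was 2.37 in osteogenic medium (SE 0.50, edgeR adjusted p = 0.0287) and -0.77 in adipogenic medium (SE 0.47, edgeR adjusted p = 0.457). The interaction was -3.14 (SE 0.69, edgeR adjusted p = 0.0374). Its call was lost under 13 of 24 alternatives, 11 of which left out 1 library, with estimates from -3.71 to -2.75 over all 24 and adjusted p from 0.000222 with DESeq2 to 0.105 with edgeR.

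**Figure D3:**
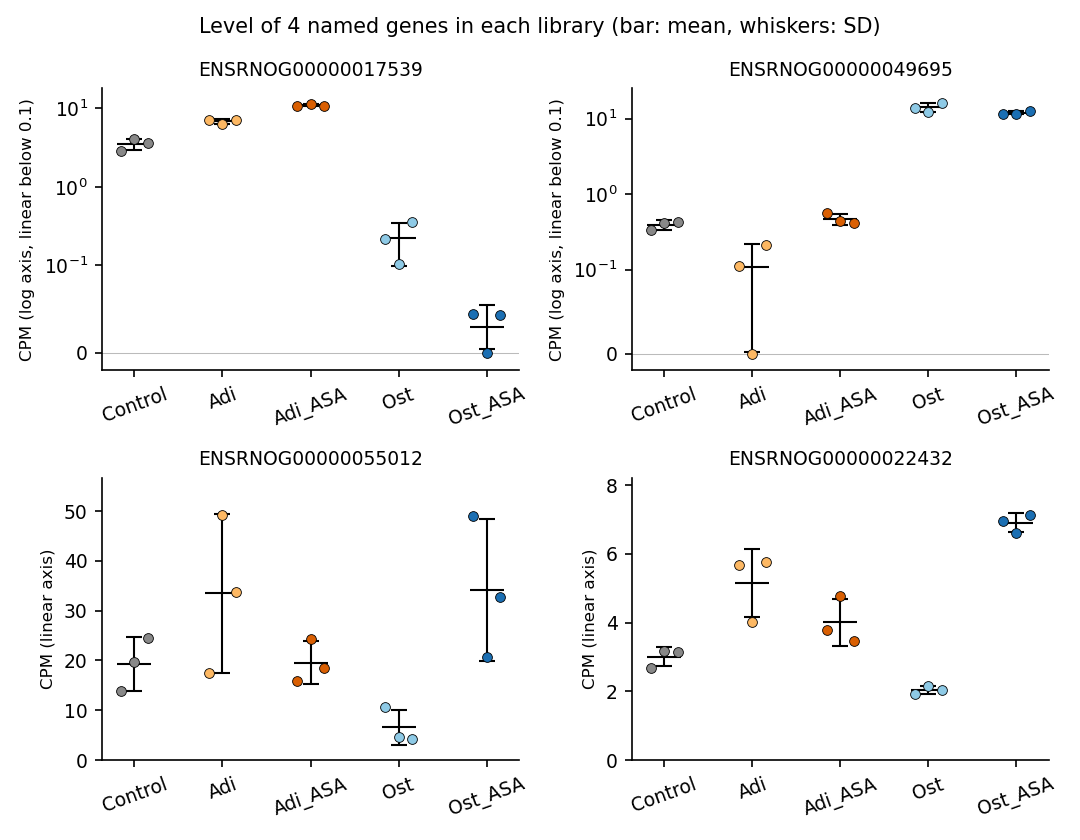
Points are the CPM of the 4 named genes in each of the 15 libraries by group, with the mean and SD of 3 libraries; the upper pair has a log axis that is linear below 0.1 CPM, and the lower pair a linear axis. The upper genes have their called changes in a medium where 1 or both groups lie below 1 CPM. The exception is the rise of ENSRNOG00000017539 between Adi and Adi_ASA. The lower genes have their called changes in osteogenic medium.

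The same interaction can be read as a change in the difference between the media. The comparisons of Adi with Ost and of Adi_ASA with Ost_ASA share no library. Without aspirin 67.1% of the genes tested differed between the media, and with aspirin 66.4% (edgeR adjusted p under 0.05). Of the 428 interaction genes, 348 differed between the media with and without aspirin, 38 without aspirin alone and 42 with aspirin alone. The difference between the media was smaller with aspirin for 235 of them (54.9%) and larger for 193, against 52.5% smaller among all genes tested. Its median size was 1.189 on the log2 scale without and 1.175 with aspirin.

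The direction of the interaction was also set beside the medium in which a gene was higher without aspirin. Of the 244 genes with a more negative effect in adipogenic medium, 154 were higher in Adi than in Ost by their estimate, and the difference narrowed with aspirin in 135 of these. Of the 184 with a more positive effect, 115 were higher in Ost, and it narrowed in 100. The difference between the media with aspirin is that without it plus the interaction. A negative interaction on a gene higher in Adi thus narrows the difference, unless it carries the gene far past equal levels. The same holds for a positive interaction on a gene higher in Ost. The libraries without aspirin also enter both the starting difference and the interaction, which favours narrowing, so nothing is read from these counts. The order of the media turned, with a call both with and without aspirin, for 24 of the 428 genes, against 28 of all 14210 genes tested. As a turned order is itself a difference of effects, nothing is read from this count. Of the 24, 14 were higher in adipogenic medium without aspirin and higher in osteogenic medium with it, as ENSRNOG00000022432 was, and 10 the reverse.

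**Figure D4:**
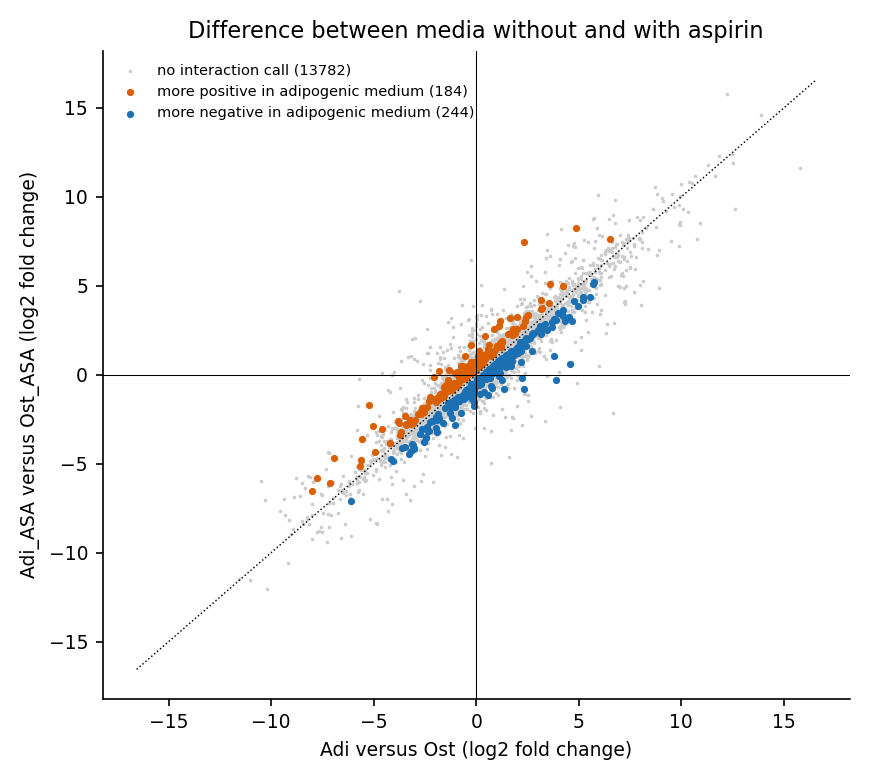
Each point is 1 of 14210 genes, with the log2 fold change of Adi versus Ost on the x axis and of Adi_ASA versus Ost_ASA on the y axis, positive where the gene was higher in adipogenic medium. The distance from the dotted line of equal differences is the interaction, with a median size of 0.59 for the 184 and 244 coloured genes and 0.14 for all genes.

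The count of 428 genes was lowest without Adi_ASA replicate 3, when 285 genes had a call (121 more positive, 164 more negative), 274 of them among the 428. It was 317 without Ost replicate 1 and 321 without Adi_ASA replicate 2, and reached 450 without Control replicate 1. Without single libraries, 274 to 415 of the 428 genes kept their call, and the sign of the interaction was the same for all 428 in each of these 15 fits. The fits reuse most of the libraries that selected the genes, so nothing is read from the kept sign. The share of more negative effects lay between 51% and 62.1% over all alternatives run. That excess over the more positive ones was thus small where it was least, without Adi replicate 3.

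**Figure D5:**
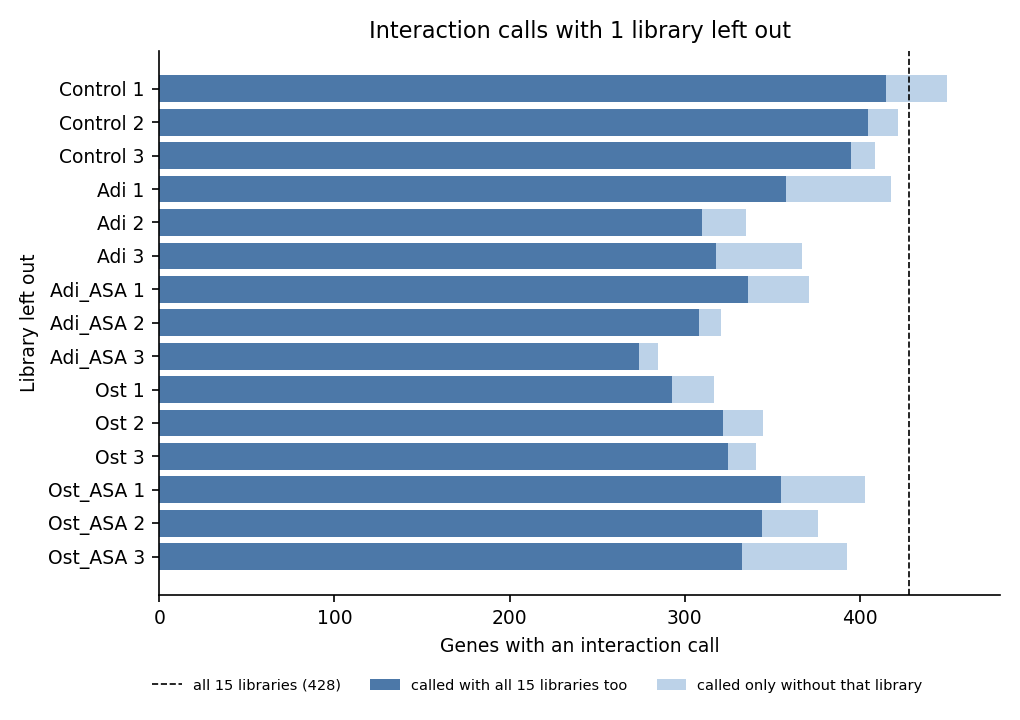
Bars give the number of genes with an interaction call when the library on the y axis was left out, dark for genes among the 428 called with all 15 libraries (dashed line) and light for others. The shortest bar is that without Adi_ASA replicate 3, at 285 genes.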

How the data were processed

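RNA was sequenced from 15 cultures, and the authors deposited 1 table of raw read counts per gene and library. The build was Rnor_6.0 and the tools named were DESeq 1.18.0, HTSeq 0.9.1 and HISAT2 2.0.4, per the submitters' processing notes. The role of each, the annotation release, the strand setting and the handling of reads shared between genes are not stated there, so values of near-identical or overlapping genes are uncertain. Of 34480 rows, 32883 had an Ensembl identifier and 1597 another kind of name. Groups and replicate numbers came from the sample titles.

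Rows were kept by filterByExpr over 5 groups (15543 rows, at least 99.9% of the reads of each library). All 15 libraries entered 1 edgeR 4.0.16 quasi-likelihood model of group means (R 4.3.3, TMM, robust), with Benjamini-Hochberg adjustment over all rows kept and a threshold of 0.05. Counts of genes are of the 14210 Ensembl rows. A standard error is the log2 fold change divided by the square root of F. The script was tested on simulated data. All replicate pairs varied beyond counting noise, at 5.41 to 13.5 chi-square units per degree of freedom. No block was used, since the labels do not say that a replicate number marks a shared batch or animal. Libraries with the same number did not deviate together (correlation -0.07 to 0.04 over 30 pairs).

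Genes to name were those with the largest interaction in each direction among genes with a call, at least 5 CPM in the highest of 4 groups, no overlap of libraries by aspirin in at least 1 medium, and a symbol. As no row could be paired with a symbol, that condition was dropped, the first 2 identifiers in each direction were taken, and the 28 gene and marker lists were not run. The question, lists and rules were chosen with earlier results of these data known. Alternatives were RLE and upper-quartile factors, DESeq2 1.42.0, no filter, a stricter filter, 12 libraries only, no robust estimation, the replicate block, each library left out and, added after seeing the data, Ensembl rows only.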

Additional observations from a re-analysis of the deposited data

Results flagged for a closer look

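The effect of aspirin differed between adipogenic and osteogenic medium, by the test of the difference itself, for 428 genes. Of the named genes, the difference was 3.41 for ENSRNOG00000017539 and 2.28 for ENSRNOG00000049695 (log2 scale, adipogenic minus osteogenic). Both rest on few reads in 1 medium, and each lost its call under 1 of 24 alternatives. The difference was -3.14 for ENSRNOG00000055012, whose call was lost under 13 of 24. For ENSRNOG00000022432 it was -2.12, with a call under all 24. Outside the rows with an Ensembl identifier, 12 of 1333 rows with another kind of name also passed the test of the difference. Groups of 3 libraries were not searched for outlying samples.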

How the results depend on the processing

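All 428 interaction genes kept the sign of their difference under every alternative that tested them (427 of them with 12 libraries only and 423 with the stricter filter). Every alternative reuses most or all of the libraries that selected these genes, so nothing is read from the kept sign. The count was 398 to 617 under the 8 other settings (factors, tool, filters, libraries in the model, robust estimation and block), lowest with the replicate block (398, of which 384 among the 428) and highest with DESeq2, which called 383 genes more negative in adipogenic medium, 62 with opposite calls in both media, 87 called in neither medium and 2 with the same direction in both. The replicate block gave 3 of the last kind and ended the call of ENSRNOG00000055012 (-3.14, edgeR adjusted p = 0.0896), but of no other named gene. The cause of these shifts was not tested.

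With 1 library left out, the count was 285 to 450 (121 to 192 more positive, 164 to 261 more negative), with 274 to 415 of the 428 among them. Aspirin calls ranged from 279 to 730 in adipogenic and 325 to 560 in osteogenic medium. Among interaction genes, 87 to 194 were called in adipogenic medium alone, 109 to 159 in osteogenic medium alone, 20 to 36 in both with opposite directions, 0 to 2 in both with the same direction, and 41 to 82 in neither. Opposite estimates were found for 259 to 396. Fewer libraries leave fewer degrees of freedom in these fits. RLE and upper-quartile factors moved the median interaction of all genes from 0.00075 to -0.00843 and -0.00618, under the limit of 0.1. The planned counts over gene lists were not run, since no row could be paired with a symbol. Depth limits scarce genes: below a mean of 1 CPM the median standard error of the interaction was 0.70.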
